A study of Homo sapiens with 6 samples.

Results

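Zinc transporters, metallothioneins and the metal-sensing transcription factor MTF1 were examined in A549 cells, a human lung adenocarcinoma line, in which C19orf12 had been lowered by a short hairpin RNA. The members were taken by symbol, as every gene named SLC30A or SLC39A with a number, every gene named MT1 or MT2 with a single letter, and MTF1. The annotation held 35 such symbols, of which 25 were among the 20824 genes listed in the deposited files. The 25 were 13 of 14 SLC39A genes, 8 of 10 SLC30A genes, 3 of 10 metallothionein genes and MTF1. Listed in none of the files, and not analysed here, were MT1A, MT1B, MT1E, MT1G, MT1H, MT1M, the pseudogene MT1L, SLC30A2, SLC30A10 and SLC39A2.

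The study compared A549 cells of genotype C19orf12 knockdown with A549 cells carrying sh-scramble, the control shRNA, with 3 libraries of each. Both groups are the same line and both carry an shRNA, and the labels name no drug, metal or time point. All knockdown libraries carry the same hairpin name in their titles, and no other hairpin against C19orf12 is named. Effects of that hairpin on other genes cannot be told apart from those of lowered C19orf12. The labels also do not say whether the cells were pools or clones, nor whether replicates came from separate cultures, so any p-value here covers the spread from library to library, which may be technical. C19orf12 encodes a membrane protein of mitochondria and the endoplasmic reticulum.

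Cells hold almost no free zinc. Proteins of the SLC39A (ZIP) family bring zinc into the cytosol, from outside the cell or from organelles, and those of the SLC30A (ZnT) family move it out of the cytosol, into organelles or across the plasma membrane. Metallothioneins are small cysteine-rich proteins that bind zinc, copper and cadmium. When zinc in the cell rises, MTF1 binds metal response elements in promoters and turns on metallothionein genes and SLC30A1, and in mouse and zebrafish cells it lowers SLC39A10.

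The metal response element is the sequence that MTF1 reads, so the stretches before the start of the genes with passing tests are shown. Each is the 250 bases before the RefSeq start, written 5′ to 3′ on the strand of the gene, from GRCh38.p14. MT2A is at chr16:56608334-56608583 on the plus strand, MT1X at chr16:56682220-56682469 on the plus strand and SLC30A1 at chr1:211579162-211579411 on the minus strand. Capitals mark each match to the core of the element, TGCACNC or TGCGCNC, on either strand.
MT2A: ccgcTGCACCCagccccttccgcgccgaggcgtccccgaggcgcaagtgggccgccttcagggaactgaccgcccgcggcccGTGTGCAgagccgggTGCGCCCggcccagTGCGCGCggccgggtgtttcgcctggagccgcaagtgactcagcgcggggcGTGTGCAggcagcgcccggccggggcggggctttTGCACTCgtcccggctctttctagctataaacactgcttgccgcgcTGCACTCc
MT1X: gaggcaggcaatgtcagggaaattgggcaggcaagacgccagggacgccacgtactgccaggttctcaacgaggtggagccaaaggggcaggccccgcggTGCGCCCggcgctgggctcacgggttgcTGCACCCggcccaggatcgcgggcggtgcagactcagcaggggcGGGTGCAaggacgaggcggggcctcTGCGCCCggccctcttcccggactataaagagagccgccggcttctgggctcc
SLC30A1: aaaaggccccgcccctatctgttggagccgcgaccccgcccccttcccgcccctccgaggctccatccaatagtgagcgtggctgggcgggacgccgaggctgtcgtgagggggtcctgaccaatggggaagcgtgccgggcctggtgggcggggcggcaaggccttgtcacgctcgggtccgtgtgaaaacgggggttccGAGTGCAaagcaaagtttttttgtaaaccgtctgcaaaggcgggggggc
The MT2A stretch held 7 matches, the MT1X stretch 4 and the SLC30A1 stretch 1, and none of these overlapped another. Over all 35116 promoter stretches of this length, 24.8% held at least 1 match, 6.48% at least 2 and 0.37% held at least 4. Of the 35 members 26 had an entry. The others were MT1A, MT1E, MT1F, MT1G, MT1L, MT1M, SLC30A8, SLC39A4 and SLC39A14. All 4 metallothionein genes with an entry had at least 2 matches, against 2 of 9 exporters and 0 of 12 importers. A match is a run of letters and was not tested for binding.

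**Figure D1:**
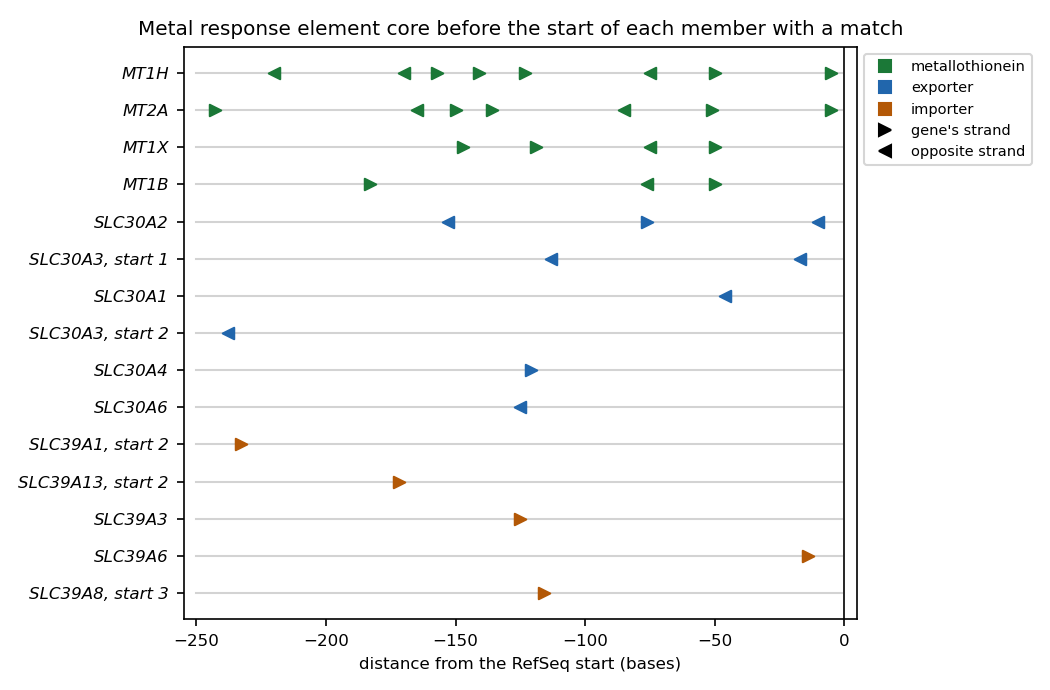
Positions of matches to the core of the metal response element in the 250 bases before the RefSeq start of each member that has at least 1 match; the x axis is the distance from the start in bases, triangles point right for the strand of the gene and left for the opposite strand, and colours give the class. MT2A carries 7 matches and MT1X 4, while SLC30A1 carries 1, near its start.

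Metallothionein genes are near copies of each other, which bears on how reads are assigned to them. The coding sequences of MT2A and MT1X, the pair that could be tested, follow in GRCh38 annotation with the bases that differ between them in capitals.
MT2A: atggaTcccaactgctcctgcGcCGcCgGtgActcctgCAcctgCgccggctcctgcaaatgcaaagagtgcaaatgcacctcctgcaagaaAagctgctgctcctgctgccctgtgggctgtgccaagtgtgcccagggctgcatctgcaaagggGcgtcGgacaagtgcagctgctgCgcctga
MT1X: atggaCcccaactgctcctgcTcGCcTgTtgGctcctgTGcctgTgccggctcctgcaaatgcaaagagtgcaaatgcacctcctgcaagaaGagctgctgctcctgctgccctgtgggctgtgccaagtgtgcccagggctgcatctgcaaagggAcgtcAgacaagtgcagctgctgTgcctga
Each has 186 bases, of which 172 are identical (92.5%). MT1F was 91.4% identical to MT2A and 88.7% to MT1X. The counts of all 3 are therefore estimates that divide shared reads, and the split between the copies is uncertain.

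Library totals ran from 10229890 to 10647587 estimated counts. Scramble replicate 3 stood apart from the others and is given by itself throughout: over all genes, in log2 CPM (TMM-scaled counts relative to library size), it correlated with scramble replicates 1 and 2 at 0.952 and 0.953, while these correlated with each other at 0.991 and with the knockdown libraries at 0.958 to 0.960. Its departure followed GC content, with a median shift of -1.03 on the log2 scale in the lowest of 10 bins of GC content and 0.51 in the highest. C19orf12 itself measured 24.2, 26.3 and 25.2 CPM in the knockdown libraries, against 42.6, 41.1 and 63.3 CPM in the scramble libraries, so the knockdown level was 51.6% of the scramble level, or 60.4% without scramble replicate 3. It fell by 0.95 on the log2 scale (SE 0.20, edgeR adjusted p = 0.0150), and missed the threshold with any 1 knockdown library left out (0.0908, 0.0755 and 0.0879). Of 15 markers of A549-type epithelium all were listed, with summed levels of 30242 to 30783 CPM in knockdown and 22557 to 26338 CPM in scramble libraries. Of the 13 tested, 3 were called higher and 1 lower, where 5.89% of all genes tested were called higher and 5.64% lower. The lung markers SFTPC and NKX2-1 were under 1 CPM in all libraries. KRT19, EPCAM and SFTPB were low as well, at no more than 2.70, 2.60 and 3.62 CPM in any library. KRT19 had 1.99 to 2.70 CPM in knockdown and 0 to 0.484 CPM in scramble libraries, so only knockdown libraries were above 1 CPM. EPCAM had 2.20 to 2.60 CPM in knockdown and 0.775 to 1.58 CPM in scramble libraries, while SFTPB overlapped. KRT8 had 4559 to 4653 CPM in knockdown and 1150 to 1688 CPM in scramble libraries. KRT18 had 5417 to 5578 CPM in knockdown and 1912 to 2830 CPM in scramble libraries. AKR1C2, ALDH3A1 and NQO1 went the other way, with every knockdown library below every scramble library. The 4 leukocyte, 7 fibroblast and 4 endothelial markers listed in the files summed to at most 20.2, 47.9 and 4.10 CPM in any library. Fibroblast markers, nearly all COL1A1, were lower in knockdown libraries, at 24.1 to 26.5 CPM against 37.6 to 47.9 CPM in scramble libraries, and their part in any result below was not tested.

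The most abundant members per length were importers. FPKM, as deposited, divides by transcript length and so allows genes to be set side by side. In knockdown libraries SLC39A1 led with 68.7 ± 1.41 FPKM (SD, n = 3), followed by SLC39A7 with 60.1 ± 1.49 and SLC39A14 with 58.6 ± 0.531 FPKM, and the ranges of SLC39A7 and SLC39A14 overlapped. In scramble libraries SLC39A14 led with 77.0 ± 1.91 FPKM, followed by MT2A with 72.6 ± 13 and SLC39A1 with 64.4 ± 11.1 FPKM, and SLC39A14 overlapped MT2A, and MT2A overlapped SLC39A1, in range. MT2A came 4th in knockdown and 2nd in scramble libraries. SLC30A1 came 5th in knockdown libraries with 32.1 ± 2.12 FPKM and 13th in scramble libraries with 12.1 ± 2.77 FPKM. From MT2A at the 4th to SLC39A9 at the 10th place in knockdown libraries, each member overlapped the next in range, so this order is not resolved. At the low end, SLC30A3 and SLC30A4 averaged 1.28 and 1.24 FPKM in knockdown libraries, against 1.75 and 1.20 FPKM in scramble libraries. MT1F, SLC30A8, SLC39A5 and SLC39A12 stayed under 1.2 FPKM in every library.

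**Figure D2:**
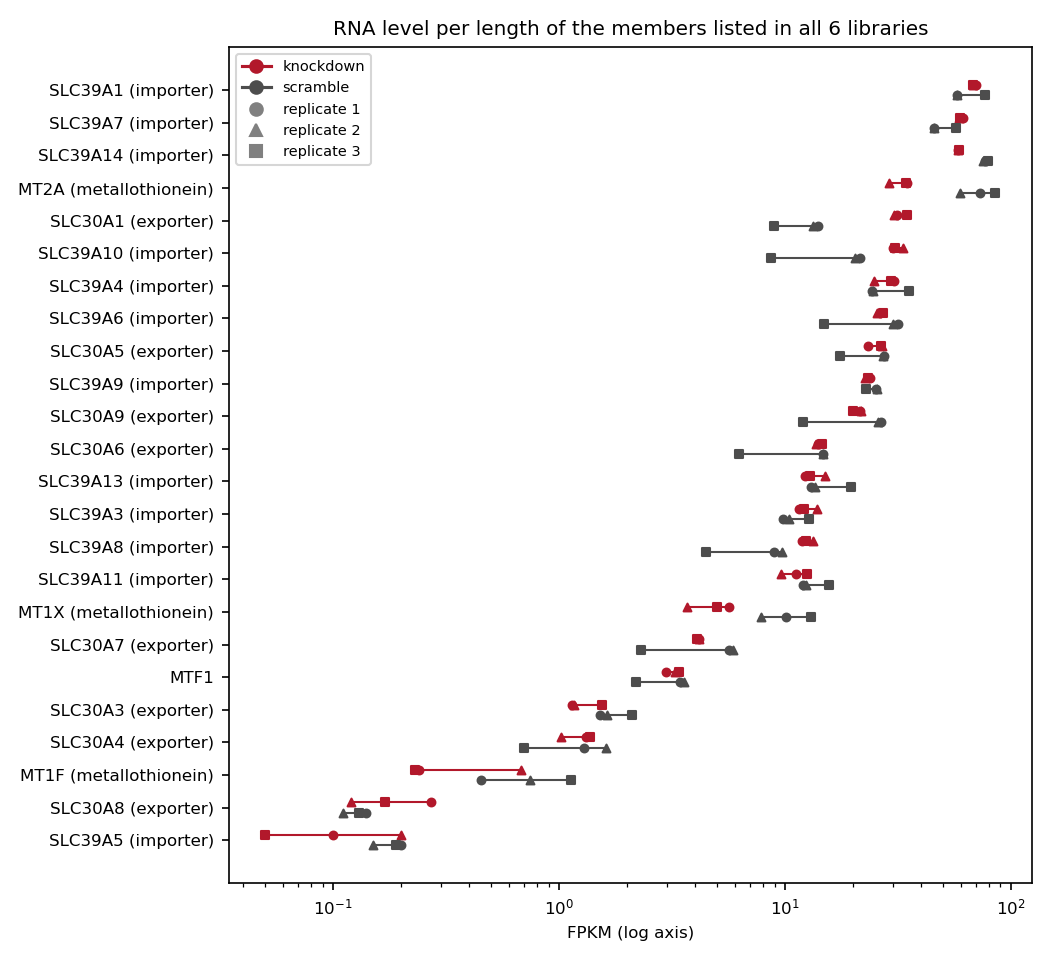
FPKM on a log axis for each of the 24 members listed in all 6 libraries, ordered by the knockdown mean, with a marker per library and a line over each group's range. MT2A and MT1X sit lower and SLC30A1 and SLC39A10 higher in knockdown than in scramble libraries, and scramble replicate 3 is the outermost scramble value for many members.

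Of the 25 listed members, 21 passed the filter on low counts and were tested in a fit over all 14812 genes. The other 4 were SLC30A8, SLC39A5, SLC39A12 and MT1F. By edgeR's quasi-likelihood test 3 of the 21 passed an adjusted p of 0.05: SLC30A1 was higher in knockdown cells, and MT2A and MT1X were lower. Over all genes tested 11.5% passed, 5.89% higher and 5.64% lower, so a count of 3 of 21 is close to the background. The members' median log2 fold change was 0.11, beside 0.02 over all genes. Groups did not overlap for 7 of the 21, with 4 above and 3 below in knockdown libraries, where 37.0% of all genes tested did not overlap, 18.4% above and 18.6% below. Without scramble replicate 3, 13 of 22 members passed, 7 higher and 6 lower, where 49.5% of all genes passed, 25.7% higher and 23.8% lower. The spread between libraries of a group that edgeR fitted over all genes, as a coefficient of variation, was 18.9% with all 6 libraries. It was 2.97% without scramble replicate 3, and the small adjusted p-values of that fit rest on this narrow spread. With offsets for GC content and length on all 6 libraries 9 of 21 passed, 6 higher and 3 lower, where 34.5% of all genes passed, 19.1% higher and 15.4% lower.

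Metallothionein RNA was lower in C19orf12 knockdown cells. MT2A, the main metallothionein of most human cells, had 15.4, 12.9 and 15.3 CPM in knockdown libraries, against 30.6, 24.8 and 38.6 CPM in scramble libraries. Every knockdown library was below every scramble library, with scramble replicate 3 the highest. The means were 14.6 ± 1.42 CPM in knockdown and 31.3 ± 6.93 CPM in scramble libraries (SD, n = 3 each), a log2 fold change of -1.11 (SE 0.20, edgeR adjusted p = 0.00744). With scramble replicate 3 left out it was -0.93 (adjusted p = 2.12e-07). Leaving out knockdown replicate 2, the lowest of its group, gave -1.04 and an adjusted p of 0.0587, which misses the threshold. As these are bulk samples, fewer cells with the RNA and less RNA per cell cannot be told apart, here or below.

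MT1X, a further inducible metallothionein, had 2.55, 1.65 and 2.24 CPM in knockdown libraries, against 4.28, 3.27 and 5.90 CPM in scramble libraries. The groups did not overlap, but the estimated counts were few, from 16.5 to 25.5 in knockdown and from 35.2 to 60.9 in scramble libraries. The log2 fold change was -1.04 (SE 0.29, edgeR adjusted p = 0.0467), just inside the threshold. It was -0.80 with scramble replicate 3 left out (adjusted p = 0.0168). It did not pass when knockdown replicate 1, 2 or 3 was left out (adjusted p = 0.109, 0.193 and 0.141), when scramble replicate 1 was (0.0840), or with limma-voom (0.0621). MT1F was listed with 1 to 2.99 estimated counts in knockdown libraries and 2 to 5.16 in scramble libraries, and its groups overlapped. MT2A held 85.4% to 86.9% of the summed metallothionein FPKM in knockdown libraries and 85.8% to 87.4% in scramble libraries. The summed level of the 3 genes was 40.4, 33.2 and 39.6 FPKM in knockdown libraries, against 83.4, 68.1 and 99.7 FPKM in scramble libraries.

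MTF1 RNA did not pass the test. It had 24.6, 26.9 and 27.8 CPM in knockdown libraries, against 26.6, 27.6 and 18.3 CPM in scramble libraries, and the log2 fold change was 0.13 (SE 0.19, edgeR adjusted p = 0.744). Scramble replicate 3 was the lowest library and the others lay close together, and the sign turned without it (-0.04, adjusted p = 0.75). The activity of MTF1 is set by zinc binding and its entry into the nucleus, which RNA levels do not show.

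SLC30A1, the exporter of the plasma membrane, rose. It had 65.1, 63.5 and 71.5 CPM in knockdown libraries, against 27.4, 25.7 and 18.7 CPM in scramble libraries. The lowest knockdown library was above the highest scramble library by more than the spread within either group. The means were 66.7 ± 4.24 CPM in knockdown and 23.9 ± 4.62 CPM in scramble libraries (SD, n = 3 each), a log2 fold change of 1.48 or 2.79-fold (SE 0.19, edgeR adjusted p = 0.00115). With scramble replicate 3 left out it was 1.33 (adjusted p = 1.32e-12), and with the GC and length offsets 1.36 (adjusted p = 2.09e-05). The call held with each library left out in turn, with log2 fold changes of 1.33 to 1.58.

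MT2A and SLC30A1, which MTF1 is known to turn on together, thus differed in opposite directions. The FPKM of MT2A over that of SLC30A1 was 1.10, 0.946 and 0.997 in knockdown libraries, against 5.18, 4.49 and 9.60 in scramble libraries. The ratio was near 1 in each knockdown library and above 4 in each scramble library. It is made of the members already described and is no separate test. In scramble replicate 3, MT2A was shifted by 0.48 and SLC30A1 by -0.50 on the log2 scale from the other scramble libraries. The ratio of 9.60 in that library holds both shifts.

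**Figure D3:**
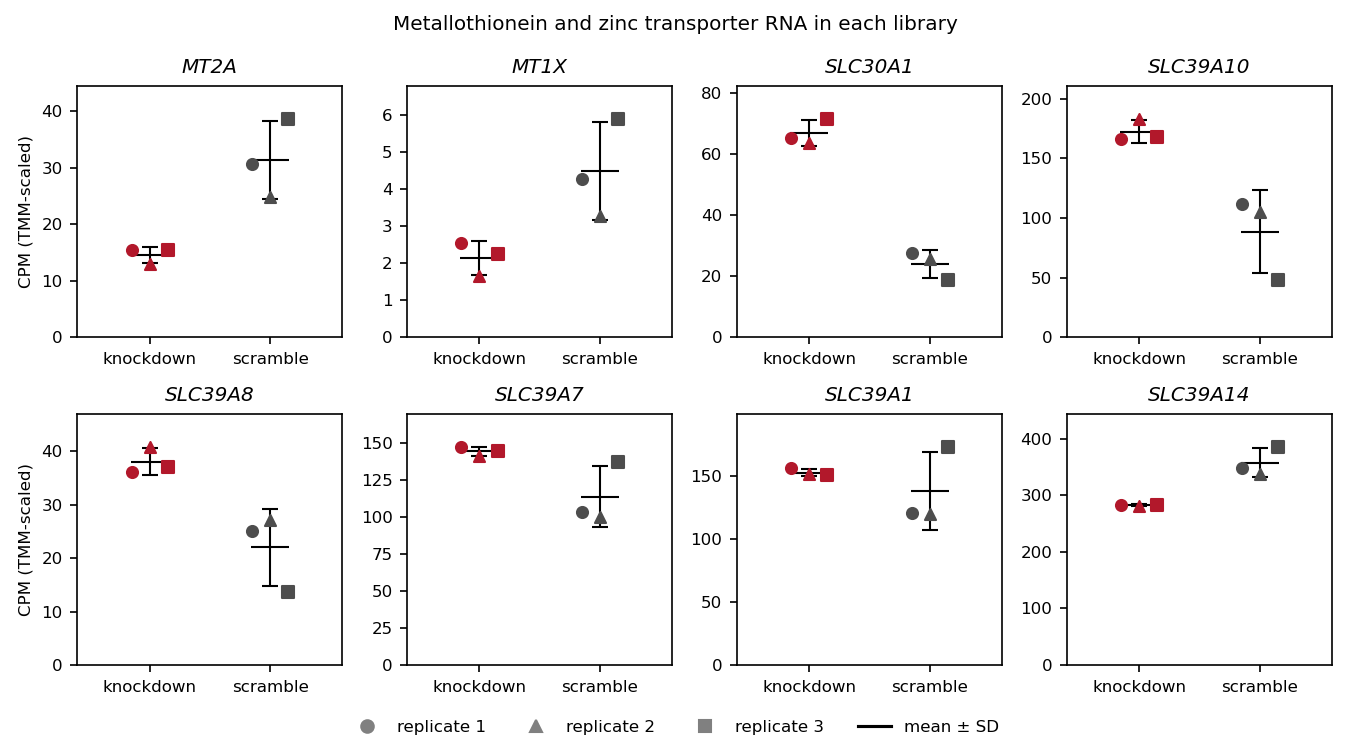
TMM-scaled CPM of 8 members by library, on axes that start at 0, with knockdown left of scramble, a symbol for each replicate and bars for mean and SD. MT2A and MT1X are lower in all knockdown libraries and SLC30A1, SLC39A10, SLC39A8 and SLC39A7 higher; scramble replicate 3, the grey square, is the outermost scramble library for all 8.

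The other 6 exporters tested did not pass with all 6 libraries. SLC30A5 and SLC30A6, which form a pair that loads zinc into enzymes of the secretory pathway, had log2 fold changes of 0.20 (SE 0.21, edgeR adjusted p = 0.622) and 0.32 (SE 0.27, adjusted p = 0.533). SLC30A6 measured 70.4, 69.3 and 72.6 CPM in knockdown libraries, against 69.6, 69.1 and 31.4 CPM in scramble libraries, with scramble replicate 3 far below the others. Without that library the value was 0.03 (adjusted p = 0.697), and with the GC and length offsets as well it was 0.13 and passed (adjusted p = 0.0444). SLC30A7, a Golgi transporter, had 34.7, 35.1 and 34.5 CPM in knockdown libraries, against 44.4, 46.6 and 19.5 CPM in scramble libraries. It lay below scramble replicates 1 and 2 and above replicate 3, at -0.08 (SE 0.29, adjusted p = 0.9) with all libraries and -0.39 (adjusted p = 5.53e-05) without replicate 3. SLC30A9, a mitochondrial zinc exporter, had 72.4, 73.0 and 67.2 CPM in knockdown libraries, against 84.1, 81.4 and 40.9 CPM in scramble libraries, and its value was -0.22 (adjusted p = 0.00215) without replicate 3 and 0.04 with it. The vesicle transporters SLC30A3 (-0.40) and SLC30A4 (0.11) were low in level and did not pass in either setting. SLC30A8, the zinc transporter of insulin granules, was under 1.6 CPM in every library. It was too low for the fit with all 6 libraries, and did not pass in the fit without scramble replicate 3 (0.65, adjusted p = 0.29).

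SLC30A1 made up 32.3%, 30.7% and 33.5% of the summed exporter FPKM in knockdown libraries, against 15.4%, 14.7% and 17.8% in scramble libraries. Here scramble replicate 3 was the highest scramble library, though below every knockdown library. Its summed exporter level was the lowest, but not every exporter was low in it. SLC30A3 had 2.10 FPKM there, against 1.52 and 1.63 FPKM in scramble replicates 1 and 2. The summed exporter level was 97.1, 99.4 and 103 FPKM in knockdown libraries, against 91.4, 90.6 and 49.9 FPKM in scramble libraries.

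**Figure D4:**
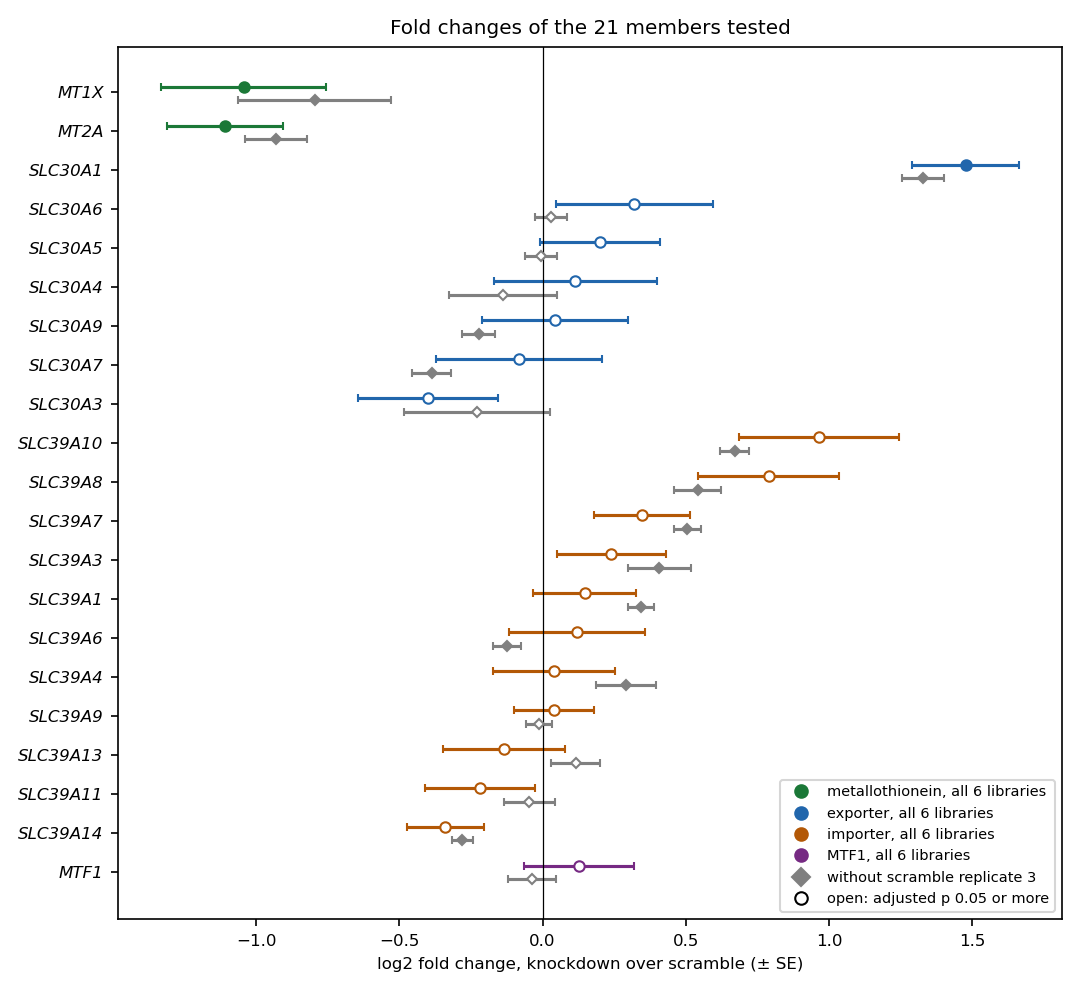
Log2 fold change of knockdown over scramble with its SE for the 21 members tested, by class, with all 6 libraries (circles) and without scramble replicate 3 (grey diamonds); filled symbols passed an adjusted p of 0.05 in that fit. The metallothioneins at -1.11 and -1.04 and SLC30A1 at 1.48 are filled in both, and many members are filled only without scramble replicate 3.

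None of the 11 importers tested passed with edgeR over all 6 libraries (0 of 11). At an unadjusted p of 0.05 there were 2 higher and 1 lower, where 1802 of all 14812 genes were higher and 1961 lower. DESeq2 called 2 importers higher, where it called 12.8% of all genes. By limma-voom 0 importers passed, where 11.2% of all genes did. With the GC and length offsets on all 6 libraries 5 importers rose and 1 fell, against the 34.5% of all genes that passed there. Without scramble replicate 3, 6 importers rose and 2 fell, against the 49.5% of all genes that passed there.

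The plasma membrane importer SLC39A10 had the highest fold change among them. It measured 166, 183 and 168 CPM in knockdown libraries, against 112, 105 and 48.3 CPM in scramble libraries. The groups did not overlap, and scramble replicate 3 was far below the other scramble libraries. The log2 fold change was 0.97 (SE 0.28, edgeR adjusted p = 0.0563), just outside the threshold. It was 0.67 without scramble replicate 3 (adjusted p = 2.67e-10) and 0.86 with the GC and length offsets (adjusted p = 0.0001). It passed also with the replicate number as a block (1.05, 0.00685), with DESeq2 (0.96, adjusted p = 0.00647), with no filter on low counts (0.97, 0.0411) and without scramble replicate 1 (1.16, 0.0470). It did not pass with RLE (0.0646) or upper-quartile scaling (0.0523), with limma-voom (0.0517), without any 1 knockdown library (0.145, 0.187 and 0.155) or without scramble replicate 2 (0.0705).

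SLC39A8 and SLC39A14 are near relatives that carry zinc, manganese and iron, and they differed in direction. SLC39A8 had 36.1, 40.9 and 37.1 CPM in knockdown libraries, against 25.1, 27.2 and 13.7 CPM in scramble libraries. Its groups did not overlap, and the log2 fold change was 0.79 (SE 0.25, edgeR adjusted p = 0.0723) with all libraries and 0.54 (adjusted p = 7.61e-06) without scramble replicate 3. SLC39A14 had 283, 280 and 283 CPM in knockdown libraries, against 348, 338 and 386 CPM in scramble libraries. All knockdown libraries were below all scramble libraries, by a small step, with a log2 fold change of -0.34 (SE 0.13, adjusted p = 0.15) with all libraries and -0.28 (adjusted p = 8.43e-07) without scramble replicate 3. SLC39A8 passed also with DESeq2 (adjusted p = 0.0252) and with the replicate number as a block (0.0261). Both passed with the GC and length offsets (0.70, adjusted p = 0.00694, and -0.28, adjusted p = 0.00427).

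SLC39A7, which releases zinc from the endoplasmic reticulum, had 148, 141 and 145 CPM in knockdown libraries, against 104, 99.9 and 138 CPM in scramble libraries. The groups stood apart, but scramble replicate 3 came close to the knockdown level. Its log2 fold change was 0.35 (SE 0.17, edgeR adjusted p = 0.235), and 0.51 (adjusted p = 7.43e-09) without that library. SLC39A1, a plasma membrane importer, had 156, 152 and 150 CPM in knockdown libraries, against 121, 119 and 173 CPM in scramble libraries. Scramble replicate 3 lay above all knockdown libraries and the others below, so the groups overlapped, with 0.15 (SE 0.18, adjusted p = 0.676) over all libraries and 0.34 (adjusted p = 1.16e-06) without replicate 3. SLC39A3, a close relative of SLC39A1, also had overlapping groups, at a lower level, with 18.004, 22.4 and 19.2 CPM in knockdown libraries, against 14.8, 15.1 and 20.5 CPM in scramble libraries. Its value was 0.24 (SE 0.19, adjusted p = 0.493) with all libraries and 0.41 (adjusted p = 0.00386) without scramble replicate 3. With the GC and length offsets on all 6 libraries these 3 importers passed, with SLC39A7 at 0.50 (adjusted p = 0.000474), SLC39A1 at 0.32 (0.0033) and SLC39A3 at 0.43 (0.0203).

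The remaining importers showed small or unsteady differences. SLC39A6, a plasma membrane importer of the same branch as SLC39A10, had 96.6, 95.5 and 99.7 CPM in knockdown libraries, against 107, 105 and 56.1 CPM in scramble libraries. It was at 0.12 (edgeR adjusted p = 0.806) with all libraries and -0.13 (adjusted p = 0.0381) without scramble replicate 3, so that its sign rests on that library. SLC39A4, the importer of zinc from food in the gut, was at 0.04 (adjusted p = 0.935) with all libraries and 0.29 (adjusted p = 0.0268) without that library, and did not pass with the GC and length offsets added (0.18, adjusted p = 0.165). SLC39A9 (0.04), SLC39A11 (-0.22) and SLC39A13 (-0.13), which sit on the Golgi and other inner membranes, passed in neither fit. SLC39A5 was under 0.4 CPM in every library and SLC39A12 was listed in scramble replicate 1 alone, with 1 count. The summed importer level was 348, 343 and 347 FPKM in knockdown libraries, against 327, 326 and 348 FPKM in scramble libraries, so the groups overlapped. SLC39A10 made up 8.66%, 9.69% and 8.80% of it in knockdown libraries, against 6.59%, 6.27% and 2.49% in scramble libraries.

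Scramble replicate 3 was shifted down for low-GC members and up for GC-rich members, as for other genes, but several members lay away from the median of their GC bin. SLC39A10, with 37.5% GC, shifted by -1.16 from the average of the other scramble libraries on the log2 scale, where the median gene of its GC bin was at -1.03, and SLC30A7, with 36.2% GC, was at -1.21. SLC30A1, with 38.0% GC, was at -0.50, closer to 0 than the median of the same bin. MT2A, with 62.98% GC, was at 0.48, where the median of its bin was at 0.51. MT1X, with 50.9% GC, was at 0.64, where the median of its bin was at 0.32. MTF1, SLC30A5 and SLC39A6 were at -0.56, -0.73 and -0.92, where the median of their shared bin was at -0.26. The library raised the fitted differences of SLC39A10, SLC39A8, SLC30A1, MT2A and MT1X and lowered those of SLC39A7, SLC39A1, SLC39A3 and SLC39A4, as the values with and without it show.

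**Figure D5:**
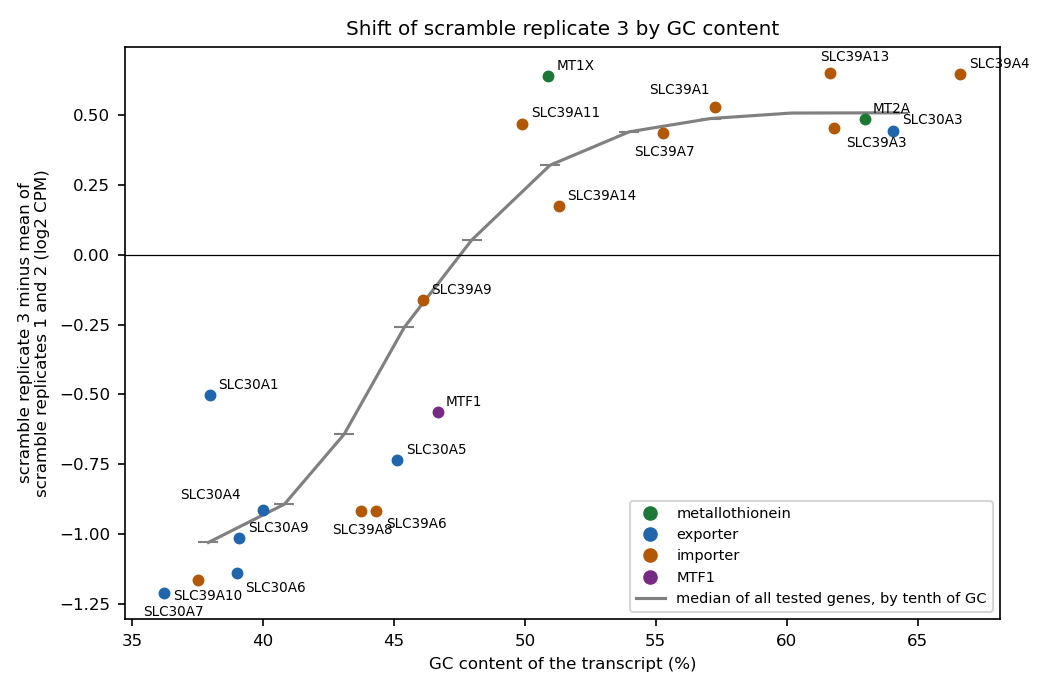
Scramble replicate 3 minus the average of the other scramble libraries in log2 CPM (y axis) against transcript GC content in percent (x axis) for the 21 members tested, coloured by class, with the median of all genes tested in each of 10 bins of GC content as a grey line. The low-GC exporters and SLC39A10 lie near -1 and the GC-rich members near 0.5, while SLC30A1 lies above the line at -0.50.

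The files give a mean transcript length per gene and library, which moves when the mix of isoforms moves, and it varied for 15 of the 21 members. Groups did not overlap for 2 of the 15, both longer in knockdown libraries, where 12.7% of 7518 genes with a varying length did not overlap. SLC39A9 had 5381, 5379 and 5389 bases in knockdown libraries, against 5322, 5239 and 4885 bases in scramble libraries. SLC39A13 had 2429 bases in each knockdown library, against 2410, 2413 and 2391 bases in scramble libraries. Most of the SLC39A9 difference was that of scramble replicate 3. SLC30A1, MT2A, MT1X and MTF1 had the same length in all 6 libraries.

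Further genes of metal handling were read from a list of 29, of which 26 were listed and 21 tested. Of these 4 rose and 1 fell by edgeR with all 6 libraries, or 23.8%, against 11.5% of all genes. The median log2 fold change was 0.14, beside 0.02 over all genes. Without scramble replicate 3, 10 rose and 4 fell, where 25.7% of all genes rose and 23.8% fell. The list was chosen with earlier results of these data known, so these shares are no test of metal-handling genes as a set. The calls include ALPI, which passed the filter on low counts only through the knockdown libraries. The copper genes SLC31A2, a copper transporter of inner membranes, and ATOX1, the copper chaperone that serves the copper ATPases, rose. SLC31A2 averaged 8.44 ± 1.10 CPM in knockdown and 4.50 ± 0.811 CPM in scramble libraries (SD, n = 3 each, log2 fold change 0.91, adjusted p = 0.0213). ATOX1 averaged 22.2 ± 0.974 CPM in knockdown and 14.7 ± 1.80 CPM in scramble libraries (0.60, adjusted p = 0.0444). ZNG1A, a zinc chaperone that loads methionine aminopeptidase, rose as well (0.74, adjusted p = 0.0462), but its near-identical copies make its count uncertain, and the copies ZNG1B, ZNG1C, ZNG1E and ZNG1F did not pass with all 6 libraries. Without scramble replicate 3, ZNG1F fell by 0.81 on the log2 scale (adjusted p = 6.12e-05) while ZNG1A was at 0.60.

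GPR39, a receptor for zinc outside the cell, fell. It had 9.50, 10.3 and 8.64 CPM in knockdown libraries, against 15.8, 13.7 and 18.7 CPM in scramble libraries (log2 fold change -0.76, edgeR adjusted p = 0.0250). The intestinal alkaline phosphatase gene ALPI, a zinc enzyme, rose: 47 estimated counts in the knockdown libraries stood against 3 in the scramble libraries, a ratio of 15.9 with an exact 95% interval of 5.13 to 80.02 that covers counting error only (adjusted p = 0.00235). ALPI is one of several near-identical phosphatase genes. It passed the filter on low counts only through the knockdown libraries, with 13.7, 18 and 14.9 estimated counts, against 0, 2 and 1 in scramble libraries. Its calls, also with a library left out, are therefore no support apart from these counts. With each library left out in turn the ALPI call held, while those of SLC31A2, GPR39, ATOX1 and ZNG1A were each lost at least once, with adjusted p-values up to 0.12, 0.15, 0.213 and 0.186. SLC31A1, the copper importer, and SOD1, the copper and zinc superoxide dismutase, did not pass with all libraries (0.39, adjusted p = 0.109, and 0.46, adjusted p = 0.12). Without scramble replicate 3 both passed (0.40, adjusted p = 1.27e-06, and 0.62, adjusted p = 1.77e-09), and SOD1 passed also with the GC and length offsets (0.42, adjusted p = 0.0178). GCLC and SLC40A1, the iron exporter, are further genes that MTF1 is known to act on, and were picked after their values were seen. GCLC was at -0.37 (adjusted p = 0.256, and -0.55 without scramble replicate 3, adjusted p = 4.5e-11). SLC40A1 was at 0.18 (adjusted p = 0.8), with its sign turned without scramble replicate 3 (-0.16, adjusted p = 0.428). Also on the list, SELENOW was at 0.01 (edgeR adjusted p = 0.988) with all 6 libraries. PGF was too low for the fit, with 2, 7 and 2 estimated counts in knockdown libraries, all below the 13, 9 and 14 in scramble libraries.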

How the data were processed

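Polyadenylated RNA of 3 knockdown and 3 scramble libraries was sequenced. The authors deposited RSEM expected counts, which are estimated counts, with FPKM values and a mean transcript length per Entrez gene, per the file headers. BWA, Bowtie2, RSEM and build hg19 are named in the submitters' processing notes, without versions or settings. Genes missing from a file were given 0 counts, since no value of 0 is listed; 3 counts (0.279 to 0.3 CPM) is the limit that counting allows. Of 20824 IDs 20727 were matched to symbols in RefSeq GRCh38.p14, which was used for names, chromosomes and promoter sequences.

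Expected counts were rounded and fitted with edgeR 4.0.16 in R 4.3.3 (filterByExpr with a minimum count of 10 and total of 15, TMM, glmQLFit, glmQLFTest, no covariate), with Benjamini-Hochberg adjustment over the 14812 genes tested. SE is the fold change over the square root of its F. Alternatives used DESeq2 1.42.0, limma 3.58.1, other scalings and filters, the replicate number as a block, splines with 5 degrees of freedom on GC content (GENCODE transcripts) and length, and each library left out. The GC and length offsets without scramble replicate 3 were added after seeing the data. The fit was also run on simulated counts that left out the GC-dependent shift of scramble replicate 3, so that run does not show how the fit handles this shift. The members and lists were chosen with earlier results of these data known. Named are C19orf12, all members, and of the related genes those called and up to 2 uncalled with the smallest p. COL1A1, the single epithelial markers, GCLC, SLC40A1, PGF, SELENOW and the ZNG1 copies were named after their values were seen. Tables were made with Python 3.11.15, pandas 2.3.3 and matplotlib 3.10.9.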

Additional observations from a re-analysis of the deposited data

How the results depend on the processing

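SLC30A1 passed under every alternative run, and MT2A under all but leaving out knockdown replicate 2. The count of members called higher was 1 in the reported fit. It was 2 with no filter on low counts, 3 with the replicate block, 3 with DESeq2, 6 with GC and length offsets, 6 with these and the replicate block, and 7 with these and without scramble replicate 3; leaving out 1 library gave 1 to 7. The count called lower was 2, with 1 by limma-voom, 5 with GC and length offsets and no scramble replicate 3, and 0 to 6 when 1 library was left out. Of all genes, 873 were called higher in the reported fit, 914 with no filter, 917 with the block and 961 with DESeq2. The offsets gave 2714, 2296 with the block and 3852 without scramble replicate 3, and leaving out 1 library 460 to 3857. Called lower were 835, with 768 by limma-voom, 3433 with the offsets and no scramble replicate 3, and 269 to 3582 with 1 library left out. These fits tested 14231 to 20750 genes. Over all genes 1708 passed, with 1654 under the replicate block, 4905 with the offsets, 4090 with the offsets and the block, 7285 with the offsets and no scramble replicate 3, and 729 to 7439 when 1 library was left out. Same-numbered libraries did not deviate together (correlations of -0.0239, -0.0181 and -0.0232). The scramble deviations hold the GC-dependent shift of scramble replicate 3, so these correlations cannot show that pairs are absent. The labels name no pairs, and the numbers are not taken as pairs. Under the block SLC39A10 (1.05) and SLC39A8 (0.84) passed as well, and so did they with DESeq2.

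The direction of 9 members that did not pass with all 6 libraries turned in some alternatives, and the cause was not tested. With the GC and length offsets the values were -0.018 for SLC30A4, -0.071 for SLC30A9, 0.052 for SLC39A13 and -0.033 for SLC39A9, and with the replicate block added they were -0.023, -0.063, 0.048 and -0.033. With the offsets and no scramble replicate 3 they were -0.0061 for MTF1, -0.056 for SLC30A4, -0.0026 for SLC30A5, -0.15 for SLC30A9, 0.077 for SLC39A13 and -0.11 for SLC39A6. SLC30A7 was at 0.0068 with the replicate block and 0.019 with limma-voom. With 1 library left out, values ran from -0.037 to 0.22 for MTF1, -0.14 to 0.36 for SLC30A4, -0.0063 to 0.31 for SLC30A5, -0.39 to 0.11 for SLC30A7, -0.22 to 0.20 for SLC30A9, -0.27 to 0.12 for SLC39A13, -0.082 to 0.29 for SLC39A4, -0.13 to 0.26 for SLC39A6 and -0.012 to 0.060 for SLC39A9. Few reads limit MT1X, with at most 60.9 counts in a library.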
